A study of Mus musculus with 4 samples.

Results

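The aorta of Ath29 congenic mice was compared with that of B6 mice on chow, gene by gene, from 2 of the study's 4 arrays, 1 on each side. The difference was taken for the 45037 probe sets, of 45101, that are not controls, and is described here for the 11718 genes that passed a filter on low signal. B6 mice were C57BL/6 mice of genotype apoE-/-, which lack apolipoprotein E, and are labelled with atherosclerosis. Ath29 mice are congenic mice with the strain given as C57BL/6, labelled as resistant to atherosclerosis, and whether they also lack apolipoprotein E is not said in their genotype label. Both groups were weaned at 3 weeks of age and stayed on chow, per the labels' protocols. Their recorded diet start age was 4 weeks and their diet duration 2 weeks. Whether RNA was pooled over mice is not said. The other arrays hold aorta of the same strains after 2 weeks of Western diet, rich in fat and cholesterol, begun at 4 weeks of age. They form a separate pair, which shares no array with the chow pair, and are given beside it. Since each group is a single array, no replicate exists and no difference below has a test, an error or a p-value.

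A congenic strain carries a short donor segment of chromosome on the background of another strain, and the Ath29 segment covers an atherosclerosis locus on chromosome 9. The wall of the aorta is mostly contractile smooth muscle, which works through actin, myosin and their regulators, within layers of collagen and elastic fibre and under a lining of endothelium. In the mouse the thoracic aorta is wrapped in fat that resembles brown fat, a tissue that burns fatty acids in its mitochondria to make heat. A dissected aorta can hold more or less of this fat, and its upper end can carry heart muscle. For that reason genes of fat and of muscle are given apart from those of the vessel wall. In such bulk samples, fewer cells of a type and less RNA per cell cannot be told apart.

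The labelled tissue was checked against defining markers. A probe set was called measured above a limit of 27.4 intensity units, the median over all probe sets, and differences against a value below it are inexact. All markers of contractile smooth muscle (Acta2, Tagln, Myh11, Cnn1), endothelium (Pecam1, Cdh5, Kdr, Tek) and fibroblasts (Pdgfra, Dpt, Lum, Dcn) were above the limit on both chow arrays. So were the 5 markers of brown fat and the 4 of macrophages. The 3 T cell markers Cd3e, Cd3g and Cd3d read at most 11.8 on the chow arrays. The extract protocol names liver where the source label names aorta. Of the hepatocyte markers, albumin (Alb) read 64.0 in Ath29 chow and 33.7 in B6 chow, and Apoa1, Ttr and Fgb lay below the limit on both. The Apoe probe set read 8.43 and 7.18, below the limit, but its probes may lie outside the deleted part, so it checks no genotype.

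Each array carries control probe sets near the 3', middle and 5' part of a transcript, whose ratio reads how far copies of an mRNA reach from its 3' end. The actin 3' probe set read 8088 in Ath29 chow and 9016 in B6 chow, a log2 difference of -0.16. The actin middle probe set read 790.5 and 1768, a log2 difference of -1.16, so that the 3' to middle ratio was 10.2 in Ath29 chow and 5.10 in B6 chow. Gapdh did not show this: its 3' to middle ratio was 8.87 and 9.23. Its 3' to 5' ratio was 22.8 in Ath29 chow and 31.3 in B6 chow. Of the other controls, the 3' to middle ratio was 7.62 in Ath29 chow and 8.77 in B6 chow for dap. For 18S it was 0.862 and 0.980. Ratios for lys (5.32 and 3.09), phe (24.9 and 21.2) and the transferrin receptor (26.5 and 44.9) rest on middle values under 27.4 units. For actin, Ath29 chow thus had the highest and B6 chow the lowest ratio of the 4 arrays on both measures, and for the Gapdh 3' to 5' ratio the order was turned.

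**Figure D1:**
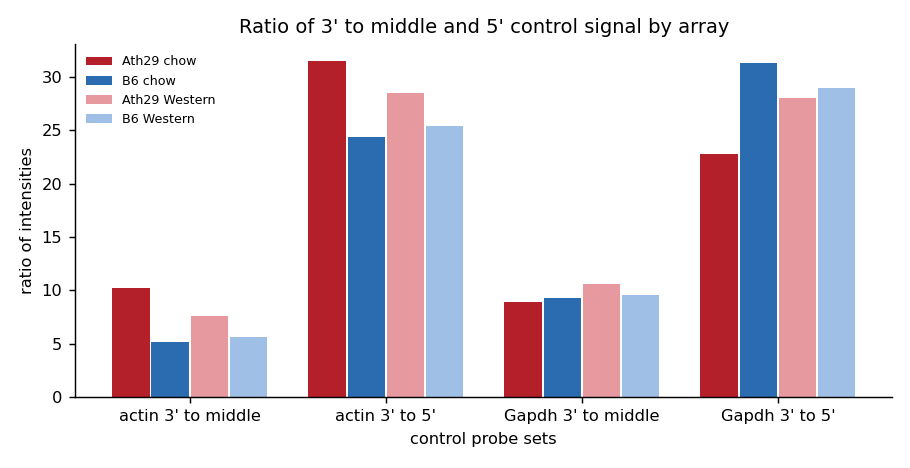
Ratio of the 3' control probe set to the middle and 5' ones for actin and Gapdh (horizontal axis), as a ratio of intensities (vertical axis), with 1 bar for each of the 4 arrays. The actin 3' to middle ratio is 10.2 in Ath29 chow against 5.10 in B6 chow, while the Gapdh 3' to 5' ratio is 22.8 against 31.3.

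On chow 253 genes read at least 2-fold higher in Ath29 than in B6 aorta, 2.16% of those compared, and 229 read at least 2-fold lower, 1.95%. These shares are the background for every list below. The median gene had a log2 difference of -0.08, 41.0% of genes lay above 0, and 5% of genes lay below -0.75 and 5% above 0.71. Of the 253 higher genes, 67 had a chow value below the limit, as did 72 of the 229 lower ones. Large differences were more frequent among dim genes. In the dimmest of 4 equal bins of level 8.19% of genes differed by at least 2-fold, and in the brightest bin 1.26%. None of the 209 genes with a mean of 5000 units or more did, and they ranged from -0.62 to 0.74; this level was chosen after the values were seen. When the arrays were set to a common 75th percentile in place of a common median, 310 genes were higher and 170 lower.

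B6 chow held the lowest of the 4 values in 232 of the 253 higher genes, or 91.7%, against 22.6% of all genes compared. B6 Western held the highest value in 141 of the 253, against 3100 of all 11718 genes. Among the 229 lower genes, Ath29 chow held the lowest value in 189, or 82.5%, against 31.8% of all genes, and B6 chow the highest in 164, or 71.6%, against 34.9%. The choice of genes by the difference between the chow arrays favours such places for the chow arrays. On the separate Western pair, 60 of the 253 higher genes (23.7%) were again higher in Ath29 mice, and their median difference there was -0.71. Of the 229 lower genes, 123 (53.7%) were again lower, with a median of -0.05. The median over all genes on the Western pair was 0.0, so the lower genes as a set lay close to it there. The 2-fold line was passed in that direction on the Western pair too by 9 of the higher and 21 of the lower genes, where 0.845% and 2.03% of all genes were past 2-fold higher and lower on the Western pair.

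**Figure D2:**
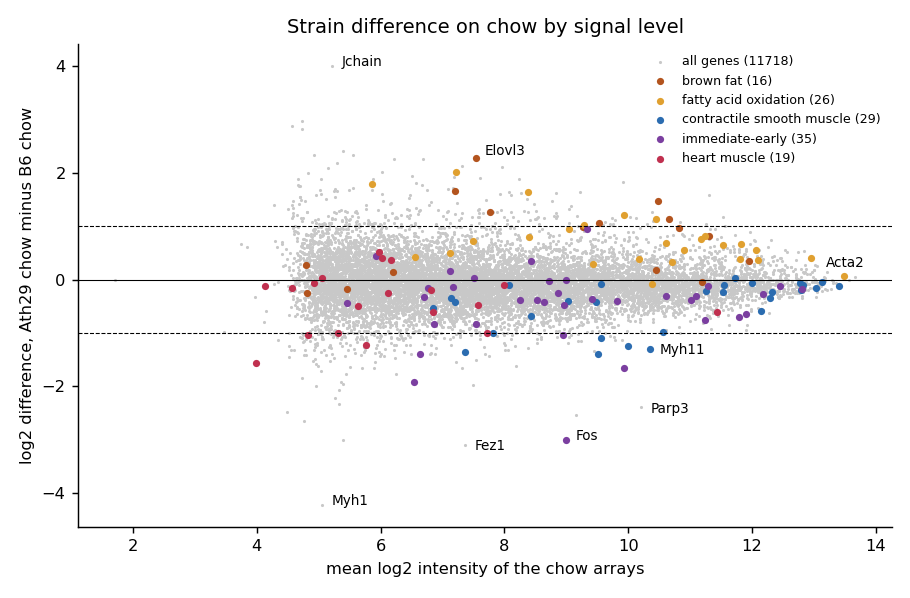
Mean log2 intensity of the chow arrays (horizontal axis) against the log2 difference between Ath29 chow and B6 chow (vertical axis), 1 point per gene, with 5 gene lists in colour and dashed lines at 2-fold. The spread narrows with level, brown fat and fatty acid oxidation genes lie mostly above 0, and 28 of 29 contractile smooth muscle genes lie below it.

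Contractile smooth muscle genes read lower in Ath29 aorta as a group. Of the 30 listed, 29 were measured, 28 of them lay below 0, 6 were at least 2-fold lower and 0 higher to that extent, and the list median was -0.34 against -0.08 over all genes. B6 chow was the highest of the 4 arrays for 26 of the 29, and on the Western pair the list median was 0.12. Tpm1, the tropomyosin that lies along the thin filament, read 451 in Ath29 chow, 1192 in B6 chow, 755 in Ath29 Western and 855 in B6 Western, 2.64-fold lower in Ath29 on chow. Its other measured probe sets gave -0.75 and -0.89. Myh11, the smooth muscle myosin heavy chain, read 833, 2049.8, 1318 and 1369 in the same order, 2.46-fold lower, but its other measured probe set gave 0.06. Both chow arrays stood outside the Western ones for these genes, Ath29 chow below and B6 chow above.

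Regulators of contraction followed. Myl9, the regulatory light chain of smooth muscle myosin, read 662 in Ath29 chow, 1579.7 in B6 chow and 1103 and 1245 on the Western arrays. Ppp1r14a, an inhibitor of the phosphatase that acts on that light chain, read 1076 and 2129.8 on chow, a log2 difference of -0.98. The LIM domain genes Pdlim7 and Csrp1 had -1.09 and -1.01, and the other measured probe sets gave -0.36 and 0.47 for Pdlim7 and -0.50 for Csrp1. Mustn1 had -1.36. Among the brightest members, Acta2, the smooth muscle actin, read 10393 in Ath29 chow and 11271 in B6 chow (-0.12), with another probe set at -0.91. Mylk, the myosin light chain kinase, had -0.20, with others from -0.69 to 0.35. Small differences were also read for dimmer members, such as 0.03 for the filamin Flna and -0.09 for the actin Actg2. The 8 members with a mean of 5000 units or more ran from -0.34 to -0.05, while the other 21 had a median of -0.43. On chow the actin 3' to middle ratio was higher in Ath29, where this list was lower. On the Western pair the ratio was 7.62 in Ath29 and 5.63 in B6, and the list median there was 0.12. The part of the ratio in the difference was not tested.

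Many contractile genes are driven by serum response factor (Srf) with its partner myocardin (Myocd), through a short DNA element called the CArG box, a stretch of A or T between a pair of C and a pair of G. Srf itself had a difference of -0.40 and Myocd of -0.22. Among promoters in RefSeq's table for GRCm38.p6, the 250 bases before the start site held a CArG box, on either strand, in 4 of the 24 measured contractile members found there, or 16.7%. The share over all 27025 genes of the table was 1.62%. Members without a box read lower too, since 28 of the 29 measured members lay below 0. Whether the box has a part in the difference was not tested. The boxes are shown, in capitals within 10 flanking bases on each side, as a description. They are written 5' to 3' in the direction of the gene.
Myl9 (chr2:156775293-156775322, plus strand): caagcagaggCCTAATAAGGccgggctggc
Myl6 (chr10:128493040-128493069, minus strand): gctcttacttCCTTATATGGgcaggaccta
Vcl (chr14:20929161-20929190, plus strand): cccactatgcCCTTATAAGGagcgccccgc
Srf, first box (chr17:46556225-46556254, minus strand): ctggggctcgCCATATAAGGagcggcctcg
Srf, second box (chr17:46556205-46556234, minus strand): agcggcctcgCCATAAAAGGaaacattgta

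The log2 differences of these genes were -1.25 for Myl9, -0.68 for the light chain Myl6, -0.34 for Vcl, the vinculin of adhesion sites, and -0.40 for Srf. For the member that differed most among them, the whole 250 bases before the start of Myl9 (chr2:156775214-156775463, plus strand) are given with the box in capitals.
Myl9: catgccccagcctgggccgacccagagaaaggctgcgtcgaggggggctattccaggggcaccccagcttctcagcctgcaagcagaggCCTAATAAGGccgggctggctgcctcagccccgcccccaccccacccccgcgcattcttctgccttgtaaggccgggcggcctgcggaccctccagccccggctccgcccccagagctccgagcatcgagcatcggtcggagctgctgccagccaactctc
A match of letters is a description and shows no binding.

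Immediate-early genes, which cells switch on within minutes of a stimulus, also read lower in Ath29 aorta on chow. Of the 39 listed, 35 were measured, 30 lay below 0, 5 were at least 2-fold lower and 0 higher to that extent, with a median of -0.36. Fos, a subunit of the AP-1 transcription factor, read 180.2 in Ath29 chow, 1456 in B6 chow, 539.7 in Ath29 Western and 614 in B6 Western. Its 8.08-fold difference on chow came from a value above and a value below those of the Western arrays. Klf2, the endothelial transcription factor of laminar flow, read 47.9, 182, 154 and 119, so that Ath29 chow alone was low. Ccn1, a matricellular protein, read 552, 1742, 1298 and 2036, and all 4 of its measured probe sets were lower by -1.89 to -1.23.

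The transcription factor Egr3 had a log2 difference of -1.39, the survival gene Ier3 -1.05, Egr1 -0.76, Klf6 -0.71 and the MAP kinase phosphatases Dusp6 and Dusp1 -0.84 and -0.65. On the other side, the growth arrest gene Gadd45g read 895 in Ath29 chow against 463 in B6 chow (0.95), and the prostaglandin synthase Ptgs2 had 0.45, but -2.93 on its other probe set. Ath29 chow held the lowest of the 4 values in 26 of the 35 members, or 74.3%. On the Western pair the list median was -0.08 and 3 members were at least 2-fold lower.

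A CArG box lay before the start site of 2 of the 28 measured immediate-early members in the table, or 7.14%, in Egr2 and Zfp36. Egr2, whose boxes are not shown, had a difference of -0.15. Zfp36, a factor that destabilises inflammatory mRNAs, had a difference of -0.38, and its box is shown for comparison with the contractile ones.
Zfp36 (chr7:28379267-28379296, minus strand): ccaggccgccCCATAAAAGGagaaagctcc
The cyclic AMP response element TGACGTCA was found in 3 of the 28, or 10.7%, against 1.77% of all genes, in Dusp1, Btg2 and Maff.

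Lists of the wall matrix and of growth factor signalling had medians from -0.32 to -0.04. Collagens and their enzymes had a median of -0.16, 18 of 20 lay below 0 and 0 differed by 2-fold, and B6 chow held the highest value in 15. Col6a3 read 1162 and 1726 on the chow arrays (-0.57), and the collagen chaperone Serpinh1 1274 and 1804 (-0.50). Elastic fibre genes had a median of -0.25 over 9, with the crosslinking enzyme Lox at -0.48, or 0.15 on another probe set, and elastin (Eln) itself at 0.21. Timp1, the inhibitor of matrix metalloproteinases, read 249 in Ath29 chow against 541 in B6 chow and 741 and 625 on the Western arrays, and the protease Mmp3 had -0.85. For Timp1, as for Klf2, Ath29 chow lay below the other 3 arrays.

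The TGF-beta and BMP list, 22 of 23 measured, had a median of -0.32, with 17 members below 0. Of the ligands, Tgfb3 read 249 in Ath29 chow and 469 in B6 chow (-0.91), Bmp4 had -0.84 and Tgfb1 -0.61, with another Tgfb1 probe set at -0.04. Of the receptors, Tgfbr1 had -0.57, Tgfbr3 -0.47 and Acvrl1 0.48, with another Acvrl1 probe set at -0.18. The target gene Id1 read 44.3 and 91.1 on the chow arrays and 84.6 and 74.9 on the Western ones, the one member past 2-fold. The transducers Smad2, Smad3 and Smad7 had -0.05, -0.08 and 0.03, though other probe sets gave -1.06 for Smad2 and -0.54 for Smad7. The list median on the Western pair was 0.18.

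Vasoactive receptors and ion channels had a median of -0.21, with 16 of 20 below 0 and 0 past 2-fold. Kcnmb1, the smooth muscle subunit of the large-conductance potassium channel, read 1776 in Ath29 chow and 3129 in B6 chow (-0.82), with another probe set at -0.86. Agtr1a, the angiotensin receptor, had -0.62, the nitric oxide sensing cyclase subunit Gucy1b1 -0.62 and the endothelin receptor Ednrb 0.79. Other measured probe sets gave 0.27 for Gucy1b1 and -0.77 and 0.38 for Ednrb. The endothelial list lay at the level of all genes, with a median of -0.08 over 19 and 0 past 2-fold, while the fibroblast list had -0.30 over 12, among them the proteoglycan Lum at -0.96. Sod3, the extracellular superoxide dismutase of the vessel wall, read 89.0 in Ath29 chow, 189.6 in B6 chow and 173 and 149.6 on the Western arrays.

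Fat genes ran the other way. Of the 20 general adipocyte genes, 16 were measured, 14 lay above 0, 6 were at least 2-fold higher in Ath29 chow and 0 lower to that extent, and the median was 0.63. Aqp7, the glycerol channel of fat cells, read 73.1 in Ath29 chow and 17.1 in B6 chow, the latter below the limit, and 46.0 and 110.4 on the Western arrays. Adig, a fat cell differentiation gene, read 1059.7, 339, 568 and 1273. Cidec, which builds large lipid droplets, read 599.9, 268, 429 and 713. B6 chow was the lowest and B6 Western the highest array for these 3 genes, with Ath29 chow above Ath29 Western.

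Pparg, the master regulator of fat cells, had a log2 difference of 1.07, the fatty acid receptor Cd36 1.09, the hormone Adipoq 0.58 and the lipase Lpl 0.26, with another Lpl probe set at 1.49. Fabp4, the brightest member, read 9298 and 9062, a difference of 0.04, and Retn had -0.07. The summed intensity of the list was 35890 in Ath29 chow and 29270 in B6 chow. Among the defining markers, Lep read 5.78 and 5.50, below the limit on both.

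Brown fat genes had a median of 0.89 over 16 of 19, with 13 above 0, 6 at least 2-fold higher and 0 lower to that extent, and their summed intensity was 22090 in Ath29 chow against 13860 in B6 chow. Elovl3, a fatty acid elongase induced in active brown fat, read 411 in Ath29 chow, 83.9 in B6 chow, 144 in Ath29 Western and 679 in B6 Western. It was 4.9-fold higher in Ath29 on chow and lower in Ath29 on the Western pair. Otop1, a proton channel, read 262, 82.2, 154 and 313, and Cox7a1, a cytochrome oxidase subunit of muscle and brown fat, 2385, 857, 1574 and 3275. The order of the 4 arrays was the same for these genes as for Aqp7, Adig and Cidec.

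The coactivator Ppargc1a, which drives mitochondrial gene expression, was higher on all 5 of its measured probe sets, by 1.26 to 1.66. Cidea had 1.06 and Slc27a2, a fatty acid transporter, 1.13. Ucp1, the uncoupling protein that defines brown fat, read 4464 in Ath29 chow and 3526 in B6 chow (0.34), Dio2, the thyroid hormone deiodinase, had 0.17, and Prdm16, a regulator of brown fat identity, -0.05, with the other probe sets of Dio2 up to 1.15 and those of Prdm16 from -0.22 to 0.38. Members of this list therefore ranged from -0.25 for Zic1, below the limit in Ath29 chow, to 2.29 for Elovl3. On the Western pair the 2 fat lists had medians of -0.79 and -0.76, and the amount of fat left on each aorta is not given in the sources used here.

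**Figure D3:**
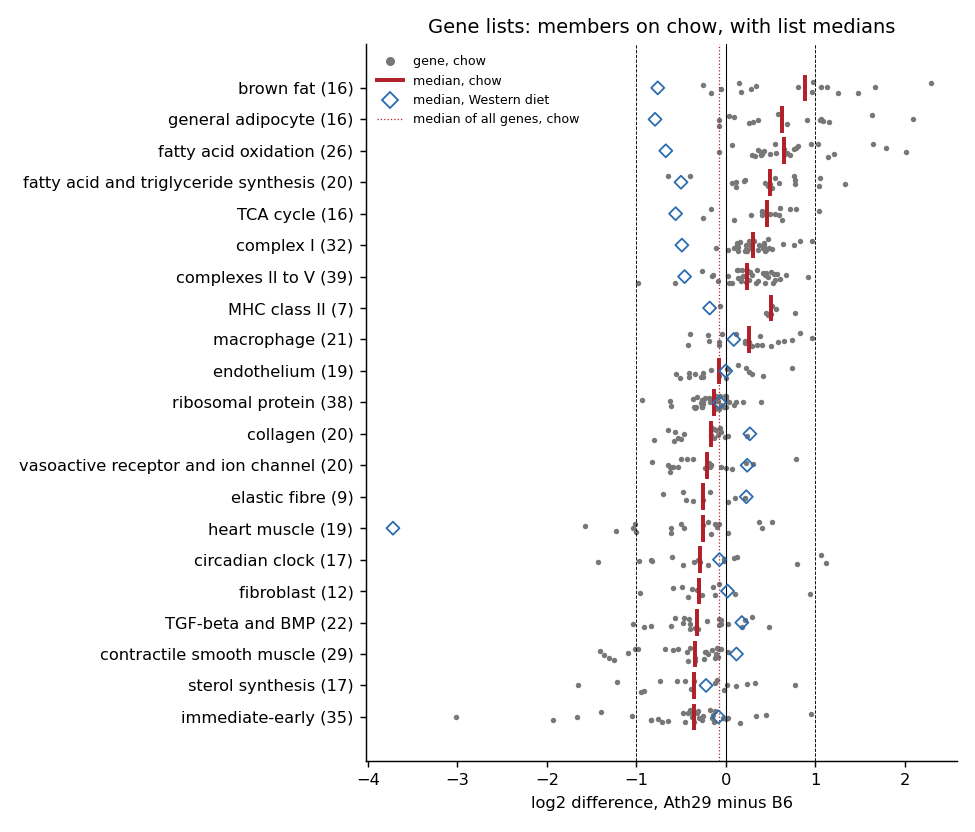
Log2 difference between Ath29 and B6 (horizontal axis) for the measured members of 21 gene lists (rows, with the number of members), where grey points are genes on chow, red bars list medians on chow and open blue diamonds list medians on Western diet. Fat, fatty acid and mitochondrial lists have medians above 0 on chow and below 0 on Western diet, and contractile, TGF-beta, collagen and elastic fibre lists the reverse.

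Genes of fatty acid oxidation were higher beside the fat lists. All but 1 of the 26 measured members lay above 0, 6 were at least 2-fold higher and 0 lower to that extent, and the median was 0.65. Ppara, the nuclear receptor that controls the pathway, read 108 in Ath29 chow, 31.2 in B6 chow, 67.3 in Ath29 Western and 157 in B6 Western, and its other measured probe sets gave 2.00 and 0.89. Ucp3, a mitochondrial carrier, read 301, 74.5, 118 and 402, with another probe set at 0.65. Ehhadh, an enzyme of the peroxisomal pathway, read 589, 188, 313 and 864. B6 chow was again the lowest and B6 Western the highest array for all 3, and it was the lowest for 23 of the 26 members.

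Along the pathway, Cpt2, which loads fatty acids into the mitochondrion, had 1.03, the acyl-CoA dehydrogenases Acadvl, Acadl and Acadm 0.81, 0.66 and 0.39, the thiolase Acaa2 0.76 and the bright trifunctional subunit Hadhb 0.40. Genes of the citric acid cycle had a median of 0.46 over 16, with 1 at least 2-fold higher, the pyruvate dehydrogenase subunit Dlat at 1.04, whose other measured probe sets gave 0.68 and 0.13. Respiratory complex I had a median of 0.31, and 31 of its 32 measured genes lay above 0, although 0 reached 2-fold. Ndufa10 read 1631 and 834 on the chow arrays (0.97), Ndufs4 had 0.83 and Ndufs1 0.76. Complexes II to V had 0.24 over 39, with 33 above 0, from -0.98 for Atp5g2 to 0.92 for Cox6a2, the muscle form of a cytochrome oxidase subunit.

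Fatty acid and triglyceride synthesis, the opposite pathway, was also higher, with a median of 0.49, 18 of 20 genes above 0 and 3 at least 2-fold higher. Acacb, which makes the malonyl-CoA that restrains oxidation, read 136 in Ath29 chow and 54.3 in B6 chow (1.33). Thrsp, a lipogenic regulator, had 1.04, the elongase Elovl6 1.05, the fatty acid synthase Fasn 0.60 and the triglyceride enzyme Dgat2 0.76, while the desaturase Scd2 had -0.65. Glycolysis genes had a median of 0.09 over 13. On the Western pair the medians were -0.67 for oxidation, -0.56 for the citric acid cycle, -0.49 for complex I, -0.46 for complexes II to V and -0.50 for synthesis. The fat lists and these lists thus had the same sign on each array pair, and the part of the fat signal in the lipid and mitochondrial values was not tested.

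Only part of the 482 genes past 2-fold could be read from more than 1 probe set. Of the 253 higher genes, 65 had another measured probe set, which in 12 cases was at least 2-fold higher too for every probe set, and in 19 cases included one with the other sign. Of the 229 lower genes, 54 had another, with 9 at least 2-fold lower throughout and 16 with the other sign on one. The 12 higher genes were Nrg4, Plin5, Ppargc1a, Ces1d, Retsat, Car4, Cd36, Cd1d1, Slc40a1, Elovl6, Pde2a and Crls1. All 12 were lower in Ath29 mice on the Western pair, by -1.51 to -0.63. Plin5, Car4, Pde2a and Crls1 were read from probe sets whose names, ending in s_at or x_at, mark them as able to bind several transcripts. So were, among others, Ccn1, Klhl7, Acta2, Parp3, Hsd17b7, Dbp, Rcn2, Praf2, Sbspon, Slc4a1, Fdft1, Dlat, C1qb, H2-Ab1, Serpinh1, Ndufs4 and Hdc. The values of all these genes may hold signal of related transcripts.

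Several of these 12 handle lipid. Plin5, a lipid droplet protein of oxidative tissue, read 4366 in Ath29 chow, 1464 in B6 chow, 3032 in Ath29 Western and 4701 in B6 Western, and both its probe sets gave 1.58. Ces1d, a carboxylesterase of fat, read 4482, 1980.3, 2712 and 4636. Crls1, which makes the mitochondrial lipid cardiolipin, had 1.02, and Nrg4, a growth factor secreted by brown fat, 1.94 and 2.85 on its probe sets. Outside lipid metabolism, Slc40a1, the iron exporter ferroportin, had 1.20 and 1.05, and Cd1d1, which presents lipid antigens, 1.11 and 1.07.

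The 9 lower genes were Myh1, Clmp, Ccn1, Praf2, Sbspon, Gtdc1, Klhl7, Emb and Rbm24. Klhl7, a ubiquitin ligase adaptor, read 409 in Ath29 chow, 836 in B6 chow and 551 and 649.7 on the Western arrays. Rbm24, an RNA-binding splicing factor of muscle, read 261, 523, 430.2 and 519. For Rbm24, Ath29 chow was low and the other 3 arrays lay closer together, while for Klhl7 the chow arrays lay on either side of the Western ones. On the Western pair 7 of the 9 were below 0 and 2 above.

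Of 27 skeletal muscle genes 18 lay below the filter, and the 9 measured had a median of -0.08. Myh1, a fast skeletal myosin heavy chain, read 6.15 in Ath29 chow, 179 in B6 chow, 5.87 in Ath29 Western and 370.2 in B6 Western. Against the intensity floor of 9.59 it was at least 18.7-fold lower in Ath29 on chow. The markers Acta1, Ckm, Myh2, Myh4 and Tnnt3 read at most 25.6 on the chow arrays, so Myh1 stood without them in B6 chow. The marker Mylpf read 31.2 in Ath29 chow and 28.8 in B6 chow, just above the limit. In B6 Western, Myh4 read 123, Acta1 36.3 and Myh2 32.9, above the limit, while Ckm and Tnnt3 stayed below it.

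Heart muscle genes had a median of -0.25 over 19, with 15 below 0 and 5 at least 2-fold lower. Sln, a regulator of the calcium pump, read 35.5 in Ath29 chow and 83.0 in B6 chow (-1.23), and Pln, a related regulator that smooth muscle also expresses, 149 and 298 (-1.0), with other probe sets at 0.10 and 0.03. Mb, the myoglobin, had -1.01, and Mybpc3 and Tnni3, with an Ath29 value below the limit, -1.04 and, as a bound, -1.57 or lower. Above 0 were the atrial light chain Myl7 at 0.52, the cardiac actin Actc1 at 0.40 and the transcription factors Tbx5 at 0.37 and Nkx2-5 at 0.03, while the cardiac myosin heavy chain Myh6 had -0.20. Summed over the list, intensity was 3561 in Ath29 chow and 5135 in B6 chow. The larger part of both sums came from the small heat shock protein Hspb7, which read 2252.5 and 3442. On the Western pair the median was -3.72, so the chow arrays were nearer to each other in heart muscle signal than the Western ones.

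The 15 highest genes with both chow values above the limit ran from 1.79 for Ppara to 2.29 for Elovl3, and most belonged to no list used here. Hand2, a transcription factor of heart and limb development, read 163 in Ath29 chow, 33.9 in B6 chow, 17.6 in Ath29 Western and 48.1 in B6 Western. Car13, a carbonic anhydrase, read 224, 46.8, 132 and 243, with another probe set at 0.85. Cntfr, the receptor subunit for ciliary neurotrophic factor, read 377, 101, 219 and 430.4. For Car13 and Cntfr, B6 chow was low and each of the other arrays read over 2-fold higher. Their 4 arrays stood in the order of the fat genes Aqp7, Adig and Cidec.

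Adtrp, a hydrolase of signalling lipids, had 1.89, the kinase Sgk2 1.92, the folate enzyme Aldh1l1 1.89 and the transcription factor Tcf23 2.01. Adtrp, Sgk2 and Aldh1l1 also showed the array order of the fat genes, with B6 chow lowest and B6 Western highest. Among all 253 higher genes B6 chow was lowest in 232 and B6 Western highest in 141. The order thus does not by itself mark a fat gene. Saa3, an acute phase protein made by macrophages and fat, read 335 in Ath29 chow and 75.9 in B6 chow against 837 and 613 on the Western arrays. Of these 15 genes, only Saa3, Gsta4, Tcf23 and Plscr2 were higher in Ath29 on the Western pair as well, by 0.45, 0.09, 0.08 and 1.35.

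The 15 lowest ran from -1.52 for Clmp to -3.10 for Fez1. Tppp3, a microtubule-binding protein, read 91.0 in Ath29 chow, 359 in B6 chow, 139 in Ath29 Western and 184 in B6 Western. Rrad, a small GTPase that restrains calcium channels, read 166, 514, 511 and 363. Ccn4, a matricellular protein of the family of Ccn1, read 35.2, 103, 98.6 and 55.8. Ath29 chow held the lowest value for all 3 of these genes, and their differences on the Western pair were -0.40, 0.49 and 0.82.

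The kinases Dclk1 and Camk4 had -1.66 and -1.77, against 0.53 and 1.77 on the Western pair, and the other measured probe sets of Dclk1 gave 0.03, -0.78 and -1.30. Rimklb, a ligase of amino acid conjugates, had -1.67 with another probe set at 0.02, and 4930503L19Rik had -1.66.

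Where 1 chow value lay below the limit, the highest differences were those of Jchain, the joining chain of secreted antibodies, at 4.01 or more, A530053G22Rik at 2.98 or more and Trim67 at 2.88 or more, since B6 chow lay at the floor. The chemokine Ccl25 followed with 2.83, and the mast cell tryptase Tpsab1 with 2.42. The lowest, after Myh1, were Nxpe4 at -3.01, the ligand Wnt3a at -2.65, the ribosome assembly factor Rsl24d1 at -2.48 or lower and Gm17501 at -2.34. These 10 values are inexact or bounds.

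**Figure D4:**
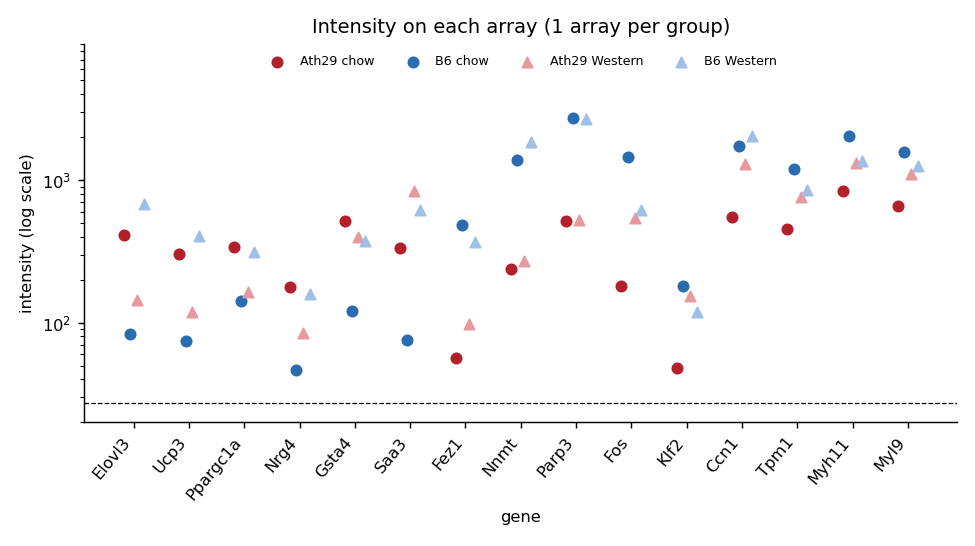
Intensity on a log scale (vertical axis) of 15 named genes (horizontal axis) on the 4 arrays, 1 point per array, circles for chow and triangles for Western diet, with the limit of 27.4 as a dashed line. B6 chow is the lowest array for the 6 genes on the left, Fez1, Nnmt and Parp3 are low on both Ath29 arrays, and Ath29 chow is lowest for Fos, Klf2, Ccn1, Tpm1, Myh11 and Myl9.

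Genes of chromosome 9, which carries the Ath29 locus, made up 5.52% of all genes compared, 7.11% of the higher genes (18 of 253) and 11.4% of the lower ones (26 of 229). In all 6.80% of the 647 genes of chromosome 9 differed by at least 2-fold, the highest share of the chromosomes, followed by 5.53% on chromosome 8, against 4.11% of all genes. The chromosome's median difference was -0.08, that of all genes. Of the 21 genes of any chromosome that were at least 2-fold lower on both array pairs, the chromosome 9 genes Fez1, Nxpe4, Nnmt and Parp3 had the largest chow differences after Myh1.

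Fez1, an adaptor of axonal transport, read 56.1 in Ath29 chow and 482 in B6 chow, and Nnmt, which methylates nicotinamide, 238 and 1381. Parp3, an ADP-ribosyltransferase, had -2.40 on its brightest probe set and -0.21 and -0.09 on the others. Tipin, a replication fork protein, and Clmp, an adhesion molecule, had -1.54 and -1.52. Each of these 5 was lower on the Western pair too, by -1.91, -2.77, -2.34, -1.48 and -1.64. The other measured probe set of Clmp, at -1.67 on chow, read 82.6 in Ath29 Western and 73.7 in B6 Western, so it was not lower there. On the brightest probe sets, the Ath29 values on chow and Western diet lay closer to each other than to those of B6. Fez1, Nnmt, Tipin and Nxpe4 have 1 probe set each. For them lower mRNA and weaker binding of the probes cannot be told apart, also where both array pairs give the same direction.

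A further group of chromosome 9 genes was at least 2-fold higher on chow and under 2-fold different on the Western pair. Gsta4, a glutathione transferase that clears lipid peroxidation products, read 518 in Ath29 chow, 119.8 in B6 chow, 396 in Ath29 Western and 374 in B6 Western, so that B6 chow alone was low. Mpzl2, an adhesion protein, read 1818, 508, 928 and 1516, with other probe sets at 0.57 and 1.79. Bckdhb, of branched-chain amino acid breakdown, and Paqr9 had 1.68 and 1.58 on chow, and -0.23 and -0.88 on the Western pair. Nrg4, named above, also lies there. Tmod3, Plscr2 and C920006O11Rik, by contrast, were past 2-fold in one direction on both pairs. The actin-capping gene Tmod3 had 1.62 on its brightest probe set and -0.78 to -0.35 on 4 others, and the scramblase Plscr2 read 179 and 50.6. C920006O11Rik, below the limit in Ath29 mice, had -1.63. On the Western pair these had 1.35, 1.35 and -3.27. Rcn2, a calcium-binding protein published as a candidate for Ath29, read 646 in Ath29 chow and 1409.8 in B6 chow, and its 2 probe sets gave -1.13 and -0.79. On the Western pair its brightest probe set read 841 in Ath29 and 1118 in B6, and the other 74.0 and 145.

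**Figure D5:**
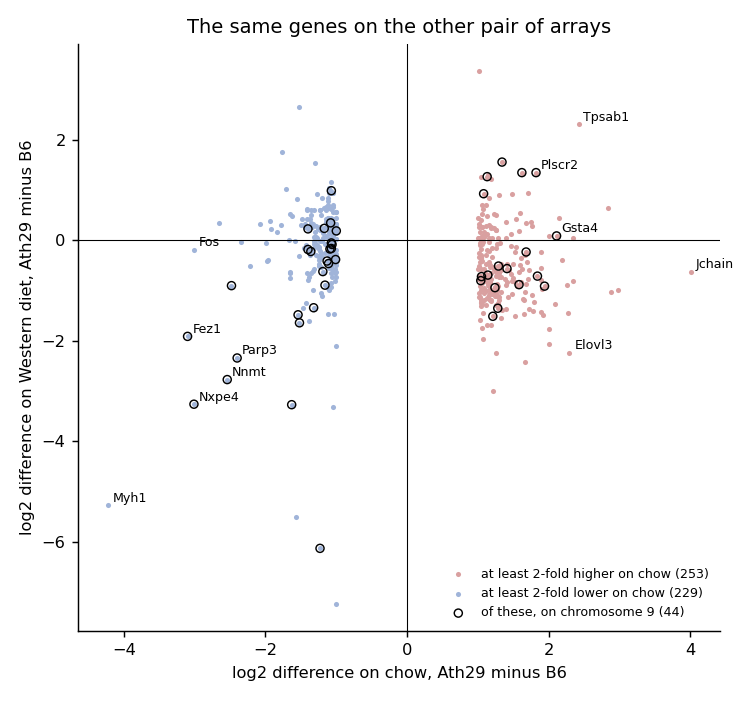
Log2 difference between Ath29 and B6 on chow (horizontal axis) against that on Western diet (vertical axis), which uses the other pair of arrays, for the 253 higher (red) and 229 lower (blue) genes, with the 44 on chromosome 9 circled. Most higher genes lie below 0 on Western diet, and the circled genes Fez1, Nnmt, Parp3 and Nxpe4 lie far below 0 on both.

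Sterol synthesis had a median of -0.35 over 17 genes on chow, with 12 below 0, 2 at least 2-fold lower and 0 higher to that extent. Hsd17b7, an enzyme of the late pathway, read 92.0 in Ath29 chow, 215 in B6 chow and 107 and 128 on the Western arrays, but its other measured probe set gave -0.13. Cyp51, the lanosterol demethylase, had -0.91 with others at -0.11 and -0.03, and Sqle, the squalene epoxidase, -0.95. Fdft1, the squalene synthase, read 3295 and 1927 (0.77), and its 4 arrays stood in the order of the fat genes. Hmgcs1, at the start of the pathway, had -0.10 and down to -1.22 on its other probe sets, and Msmo1, below the limit in Ath29 chow, -1.65. Genes of cholesterol efflux had a median of 0.09 over 11, with the exporter Abcg1 at 0.87 and the HDL receptor Scarb1 at 0.71.

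Lists of immune cells and inflammation with at least 6 measured genes had medians from -0.25 to 0.75. The macrophage list had a median of 0.26, with 14 of 21 genes above 0 and 0 past 2-fold. The chemokine receptor Ccr2 read 183 in Ath29 chow and 93.4 in B6 chow, with other probe sets at 0.89 and 0.08. The complement gene C1qb read 1034 and 582, with others at 0.98 and 0.21. Both genes were brighter on the Western arrays, at 392 and 296 for Ccr2. Antigen presentation by MHC class II had 0.51 over 7, with 6 above 0 and H2-Ab1 at 0.78. The interferon response list had 0.01 over 22 and leukocyte adhesion -0.25 over 12, with the selectin Selp at -0.67 and Icam1 at -0.64. Other Selp probe sets gave -0.28 and -0.04. Chemokines and cytokines had 0.17 over 16. There 1 gene was past 2-fold, the B cell chemokine Cxcl13 at 1.89, with B6 chow below the limit and another probe set at 0.08.

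Mast cell genes had a median of 0.75 over 6, with the histamine enzyme Hdc at 1.17 and the protease Cpa3 at 0.81, but the receptor Kit read at most 19.5 on the chow arrays, below the limit. On the Western pair the list median was -0.22, with 2 members above 0 and 4 below, and Hdc and Cpa3 had -0.83 and -1.18. The tryptase Tpsab1, the member that differed most, had 2.42 on chow and 2.31 on the Western pair. It read 96.8 in Ath29 chow and 97.8 in Ath29 Western. In B6 chow and B6 Western it read 18.1 and 19.7, below the limit. The 4 arrays of Hdc and Cpa3 stood in the order of the fat genes Aqp7, Adig and Cidec. All 6 platelet genes lay below 0, with Tubb1, the tubulin of platelets, at -1.43 and the chemokine Ppbp at -1.39, while Pf4 read 3691 and 4058 (-0.14). Of the red cell genes, the anion exchanger Slc4a1 had 1.60 and the haem enzyme Alas2 0.72, but the globin gene Hba-a2 -0.76. T and NK cell genes had a median of -0.18 over 6 and neutrophil genes 0.10 over 7.

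Circadian clock genes differed in both directions, with a median of -0.29 over 17. Nr1d1, a repressor of the clock, read 26.2 in Ath29 chow, below the limit, against 70.8 in B6 chow, and the output gene Dbp 527 and 1032, with 385 and 393 on the Western arrays. Nr1d2 had -0.83 and Clock -0.82, though the other probe sets of Clock gave -0.54, -0.04 and 0.28. Higher were the repressor Cry1, which read 332 and 159 (1.06), and Ciart, another repressor of the clock, at 1.12. The E-box CACGTG, to which the clock's activators bind, was found before the start site of 4 of 15 members in the table, or 26.7%, against 6.86% of all genes, in Per1, Cry1, Tef and Ciart. For the Western arrays, Nr1d1, Dbp and Cry1 differed by -0.10, -0.03 and -0.07. The hour of dissection is not given in the sources used here.

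Among the Hox genes, which mark position along the body axis, 3 of 17 were past 2-fold: Hoxc8 read 187 in Ath29 chow and 406 in B6 chow (-1.12), Hoxc4 had -1.0 and Hoxd8 1.05, with another Hoxd8 probe set at 0.31. Ribosomal protein genes had a median of -0.13, with 32 of 38 below 0 and 0 past 2-fold, Rplp0 lowest at -0.94. The unfolded protein response had -0.17 over 17, with the chaperone Calr at -0.62, heat shock genes -0.18 over 12, and cell cycle genes 0.24 over 15, where 0 were past 2-fold.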

How the data were processed

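RNA of mouse aorta was hybridised to 4 Affymetrix arrays, 1 per group, as biotin-labelled copies made from total RNA (8 ug), per the labels' protocols. The authors deposited 1 table of intensity values, read as linear from their range of 0.57 to 13421. How these were computed and normalized by the authors is not given in the sources used here, and the number of arrays limits the precision. Computations used Python 3.11.15, pandas 2.3.3 and numpy 2.4.6 and were tested on simulated data.

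The 64 control probe sets were set aside. Values were taken to log2, shifted to a common median (factors 0.990 for Ath29 chow and 1.02 for B6 chow) and raised to a floor at the 25th percentile of all values, 9.59, which makes a difference against the floor a bound. Kept were probe sets whose mean over the 4 arrays exceeded the median, 27.4, 22518 in all. Each gene was read from its brightest probe set. Intensities are printed after the shift and before the floor. Of the probe sets compared, 34945 have 1 gene symbol, 932 several and 9160 none. The reference gene table held 34741 of those with 1 symbol. Names and chromosomes come from the platform annotation, updated to that table.

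Groups came from the arrays' titles. Genes at least 2-fold different were counted, and 44 gene lists, given in the report and the closing section, were described by counts and medians. Genes were named by rule: the 15 highest and 15 lowest with both chow values above 27.4, the 5 highest and 5 lowest with 1 below, up to 8 members per list by size and its defining members, genes whose every measured probe set (at least 2) differed 2-fold in one direction, 15 of chromosome 9 by size, Apoe and Rcn2. Members and lists were chosen with earlier results of these data known. The remaining list members named were chosen as examples after their values were seen. Alternatives were other scalings, filters, floors, thresholds and probe set choices.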

Additional observations from a re-analysis of the deposited data

Results flagged for a closer look

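Among the lists, 3 stood out because the medians of the 2 strain differences, which come from separate array pairs, were each at least 0.5 in size with opposite signs. The general adipocyte list had a median of 0.63 on chow and -0.79 on Western diet, a gap of 1.42. The brown fat list had 0.89 and -0.76, a gap of 1.65, and fatty acid oxidation 0.65 and -0.67, a gap of 1.32. Whether these gaps exceed the spread between mice was not tested, since each group has 1 array. B6 chow held the lowest of the 4 values in 11 of 16, 12 of 16 and 23 of 26 members, and B6 Western the highest in 14, 12 and 24.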

How the results depend on the processing

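No paired analysis was possible because there is 1 array per group. Counts of genes at least 2-fold higher and lower were 512 and 447 with no filter, 109 and 71 with the filter at the 75th percentile, 847 and 1134 at 1.5-fold and 52 and 27 at 3-fold. In the other settings they stayed within 1.5 times 253 and 229, among them 231 and 223 without the listed fat, lipid, mitochondrial and muscle genes, an alternative chosen after seeing the data. Dropping probe sets able to bind several transcripts gave 195 and 243. In this setting names ending in a_at were dropped as well as those ending in s_at or x_at. Medians of the 10 leading lists moved by under 0.1 in 92 of 100 values and kept their sign in all. The exceptions were TGF-beta and BMP at -0.22 with quantile normalization, and general adipocyte at 0.47, brown fat at 1.02 and heart muscle at -0.47 with the filter at the 75th percentile. Sterol synthesis had -0.24 with both chow arrays above the median. General adipocyte had 0.76 and brown fat 0.67 with the mean of a gene's probe sets, and brown fat 0.58 after dropping the multi-transcript probe sets. Among list medians of at least 0.1 in size and named genes past 2-fold, the sign turned for nerve and Schwann cell (0.04, no filter), B and plasma cell (-0.05) and cell cycle (-0.02) with the filter at the 75th percentile, red cell (-0.30) without such probe sets, and Tmod3 (-0.11 with the mean of its probe sets, -0.78 without such probe sets). Medians under 0.1 also crossed 0, endothelium to 0.02 with quantile normalization, matrix protease to 0.02 with the 75th percentile scaling, glycolysis to -0.05, cholesterol efflux to -0.02 and interferon response to -0.04 without such probe sets. The causes were not tested. Of all 42 list medians, 376 of 418 values moved by under 0.1, and of the named genes 3228 of 3450. The signal over background limits genes near 27.4.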

Other observations

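The antioxidant list had a median of 0.11 over 16 genes. The mitochondrial Sod2 read 4305 in Ath29 chow and 2947 in B6 chow, with another Sod2 probe set at -0.08, the peroxisomal catalase Cat 6169 and 4509, and Nqo1, a quinone reductase of the cytosol, 104 and 161. Cyp2e1, a cytochrome P450 counted here with the hepatocyte genes, read 4559, 2542, 2866 and 4852 in Ath29 chow, B6 chow, Ath29 Western and B6 Western, with B6 chow lowest and B6 Western highest. The 4 measured hepatocyte genes of 25 had a median of 0.55.

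Nerve and Schwann cell genes had a median of -0.14 over 10, with the neuronal gene Stmn2 at -0.63 and the glial adhesion gene Cdh19 at 0.72. B and plasma cell genes had 0.23 over 8, where the transcription factor Pou2af1 had 0.78 and the heavy chain gene Ighm 0.01 on its brightest probe set and 0.08, 0.45 and 2.01 on its other measured ones. Epithelial and mesothelial genes had 0.22 over 5, with Krt5 at 0.49. Of the red cell list 4 genes were measured, with a median of 0.45, of the thymocyte list 1 (Satb1 at -0.36) and of the lung list 0. Matrix proteases and their inhibitors had a median of -0.04 over 12, and platelet genes -0.22 over 6.

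The hybridisation controls, added to every sample in a set amount, read higher in Ath29 chow than in B6 chow. The bioB probe sets were higher by 0.26 to 0.45 on the log2 scale, and the brightest, cre, by 0.13 and 0.20. No element of the sequence TCAAGGTCA, a site for oestrogen-related receptors, was found in the 250 bases before the start site in the 23 fatty acid oxidation or 29 complex I genes in the promoter table, and 1 of 30 genes of complexes II to V held it, Atp5g3, against 0.422% of all genes.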
